A study of Homo sapiens with 4 samples.

Results

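TSPAN31, CDK4 and AGAP2 are 3 neighbouring genes on chromosome 12 whose spans overlap end to end, and they are 3 of the 57773 genes listed in each of 4 deposited tables. They were taken by gene name, and as a set they were selected on their exon, intron and exon-exon reads in wogonin against DMSO. Their values in that comparison are therefore given as a description, with no test. The libraries come from A2780, an established human ovarian adenocarcinoma cell line, and every library is labelled WT. Libraries 3 and 4 are from cells given 10 ug/mL wogonin, a plant flavone, for 48 h. Libraries 1 and 2 are from cells given DMSO, the vehicle, and no time is stated for the vehicle. The protocol text of these 2 samples repeats that of the wogonin samples, while their titles and treatment labels name DMSO, which was followed here. The series asks whether wogonin slows ovarian cancer cells by way of DNA demethylation, and whether the 2 libraries of a group are from different cultures is not stated.

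TSPAN31 encodes a tetraspanin, one of a family of small proteins that cross the cell membrane several times and organise other membrane proteins. CDK4 encodes the kinase that pairs with D-type cyclins in the G1 phase and phosphorylates the retinoblastoma protein, and it is needed for many tumour cells to enter S phase. AGAP2, also called PIKE, encodes a GTPase with an Arf GAP domain that stimulates PI3-kinase and AKT signalling. The 3 genes lie in a stretch of chromosome 12 that is amplified in some sarcomas and gliomas. When RNA is spliced, introns are removed and neighbouring exons are joined, so a read that crosses such a join comes from spliced RNA. A read inside an intron comes from RNA that still holds the intron, or from another RNA or DNA that covers the same bases.

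By the coordinates of the deposited tables, on the GRCh 37 (hg 19) build, TSPAN31 (ENSG00000135452) spans bases 58131796 to 58143994 of chromosome 12 on the plus strand. CDK4 (ENSG00000135446) spans 58141510 to 58149796 and AGAP2 (ENSG00000135439) spans 58118980 to 58135940, both on the minus strand. TSPAN31 shares 2485 bases with CDK4, which is 20.4% of the TSPAN31 span and 30.0% of the CDK4 span. It shares 4145 bases with AGAP2, which is 34% of the TSPAN31 span and 24.4% of the AGAP2 span. CDK4 and AGAP2 do not reach each other. At its other end CDK4 overlaps MARCH9 by 916 bases, and AGAP2 overlaps its antisense gene AGAP2-AS1 by 2086 bases. Each of the 3 genes therefore has 2 partners on the opposite strand, a place that 2954 of 13449 tested genes (22%) share by overlapping 2 or more such partners. The exon model of the tables covers 5385 bases of TSPAN31, 3168 of CDK4 and 5292 of AGAP2. The GENCODE 29 annotation gives exon models of the same length for TSPAN31 and CDK4, and in it 1369 exon bases of these 2 genes lie on top of each other, on opposite strands. For AGAP2 the GENCODE 29 model is longer (6728 bases), and 189 of its exon bases lie on top of TSPAN31 exons. The strand setting of the authors' counting is not given in the sources used here, so reads that fall on shared bases could have been given to either gene.

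**Figure D1:**
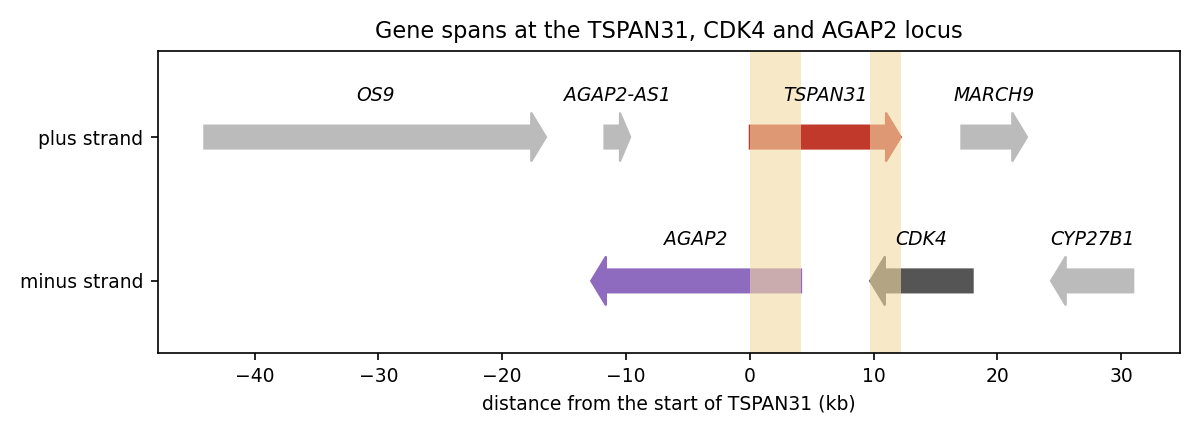
The spans of the 3 genes and their closest neighbours are drawn along chromosome 12 by strand, with the horizontal axis in kilobases from the start of TSPAN31. The shaded stretches are the 4145 bases that TSPAN31 shares with AGAP2 and the 2485 bases that it shares with CDK4.

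The joins between coding exons tell the spliced RNA of TSPAN31 apart from that of CDK4, and from RNA that was not spliced, which is why they are shown here. Each sequence below is the sense strand from GENCODE 29 transcripts, with the last 20 bases of the upstream exon in lower case and the first 20 bases of the downstream exon in capitals. A read counted as an exon-exon read of the gene has to run across a border of this kind. The 5 joins of the transcript ENST00000257910 are these.
TSPAN31 exon 1 to 2: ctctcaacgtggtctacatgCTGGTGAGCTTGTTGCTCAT
TSPAN31 exon 2 to 3: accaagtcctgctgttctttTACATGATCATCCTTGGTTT
TSPAN31 exon 3 to 4: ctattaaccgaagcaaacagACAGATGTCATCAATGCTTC
TSPAN31 exon 4 to 5: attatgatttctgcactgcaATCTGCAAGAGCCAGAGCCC
TSPAN31 exon 5 to 6: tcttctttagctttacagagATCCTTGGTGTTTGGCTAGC
The joins of the transcript ENST00000257904 that lie within its coding sequence are these.
CDK4 exon 2 to 3: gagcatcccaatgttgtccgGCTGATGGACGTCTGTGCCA
CDK4 exon 3 to 4: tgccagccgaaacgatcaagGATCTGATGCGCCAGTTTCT
CDK4 exon 4 to 5: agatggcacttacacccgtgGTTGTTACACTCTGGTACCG
CDK4 exon 5 to 6: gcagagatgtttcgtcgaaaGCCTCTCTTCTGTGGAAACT
CDK4 exon 6 to 7: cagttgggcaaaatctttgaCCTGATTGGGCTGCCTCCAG
CDK4 exon 7 to 8: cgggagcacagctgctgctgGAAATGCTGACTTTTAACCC
The introns removed at the 5 TSPAN31 joins are 527, 263, 332, 297 and 84 bases long, in this order. Those removed at the 6 CDK4 joins are 157, 116, 157, 1151, 136 and 564 bases long. Reads are counted per gene in the tables, so the counts that follow cannot be divided among single joins.

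Total exon reads per library were 11005921 and 11287570 in wogonin 3 and 4, and 11478731 and 11839562 in DMSO 1 and 2. Levels are given as CPM, reads per 1000000 exon reads after TMM scaling, and at this depth 3 reads, the floor used here, were worth 0.244 to 0.280 CPM. Of all reads in genes with exons, introns held 7.96% and 5.61% in wogonin 3 and 4, and 5.26% and 5.29% in DMSO 1 and 2, so wogonin 3 stood apart. Mitochondrial genes held 1.67% and 3.03% of exon reads in wogonin 3 and 4, and 1.65% and 1.45% in DMSO 1 and 2, so wogonin 4 stood apart by this measure. TSPAN31 had 584 and 622 exon reads in wogonin 3 and 4, so its level did not rest on 1 of these libraries. Exon-exon reads were 49.6% to 50.3% of exon reads in every library. Of 12 ovarian and epithelial marker genes, 10 had a read and MUC16 and ESR1 had none in any library. Their summed exon reads were 13 and 6 in wogonin and 19 and 27 in DMSO, 0.552 to 2.20 CPM, so the usual markers of the labelled tissue were close to absent. Of 8 markers of blood, endothelial and fibroblast cells, PTPRC, CD3E and VWF were among those with no read, and the 8 genes summed to 24.0 to 33.2 CPM, most of it CD68 and COL1A1. In RNA from whole cultures, fewer cells of a type and less RNA per cell cannot be told apart.

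TSPAN31 had far more reads after wogonin, in exons and in introns alike, while reads across its exon joins stayed at a handful. Exon reads of TSPAN31 numbered 584 and 622 in wogonin 3 and 4, against 33 and 41 in DMSO 1 and 2. In TMM-scaled units these were 54.4 and 57.3 CPM in wogonin, against 2.80 and 3.34 CPM in DMSO. Both wogonin libraries lay far above both DMSO libraries, and the members of each pair lay close together. The group means of TSPAN31 were 55.9 ± 2.01 CPM in wogonin and 3.07 ± 0.385 CPM in DMSO (SD, n = 2 each), a ratio of 18.2, or 4.19 on the log2 scale. Single wogonin libraries over single DMSO libraries gave log2 ratios of 4.03 to 4.36. Both wogonin libraries were above both DMSO libraries in 41.0% of the 13449 genes tested. As TSPAN31 was picked for this contrast, nothing is read from its standing above that share. The same limit holds for the edgeR fit of all genes, where TSPAN31 had the 40th highest log2 fold change of 13449. That fit called 32.3% of genes higher and 31.5% lower in wogonin at an adjusted p of 0.05.

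Intron reads of TSPAN31 numbered 605 and 595 in wogonin 3 and 4, against 16 and 27 in DMSO 1 and 2. They corresponded to 56.4 and 54.8 CPM in wogonin, against 1.36 and 2.20 CPM in DMSO. The 2 wogonin libraries again lay close together and far above DMSO. The means were 55.6 ± 1.14 CPM in wogonin and 1.78 ± 0.597 CPM in DMSO (SD, n = 2 each), a log2 ratio of 4.97 with a range of 4.64 to 5.38 over the 4 pairs of libraries. Both wogonin libraries were above both DMSO libraries for intron reads in 45.2% of the 15030 genes with 10 or more such reads, and below in 13.5%. Wogonin 3 was the library with the highest intron share over all genes, and TSPAN31 intron reads were as many in wogonin 4, where the overall share of introns was 5.61%.

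Exon-exon reads of TSPAN31 numbered 2 and 1 in wogonin 3 and 4, against 5 and 4 in DMSO 1 and 2. Summed over the libraries of a group these were 3 reads in wogonin and 9 in DMSO, a ratio of 0.372 after scaling, with an exact 95% interval from counting of 0.0647 to 1.49. The interval covers counting error only, and with 12 reads in all it is wide. The exon-exon counts were thus lower in wogonin, from very few reads, while the exon and intron reads were higher. Both wogonin counts were under the floor of 3 reads and the interval holds a ratio of 1, so no fall is read from them. Of the exon reads of TSPAN31, exon-exon reads were 0.342% (95% Wilson interval 0.0940 to 1.24) in wogonin 3 and 0.161% (0.0284 to 0.905) in wogonin 4. They were 15.2% (6.65 to 30.9) in DMSO 1 and 9.76% (3.86 to 22.5) in DMSO 2. Both wogonin shares were below both DMSO shares, from these few exon-exon reads. How many of all genes show the same order of shares was not counted. Without the exon-exon reads, 582 and 621 exon reads were left in wogonin, against 28 and 37 in DMSO.

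**Figure D2:**
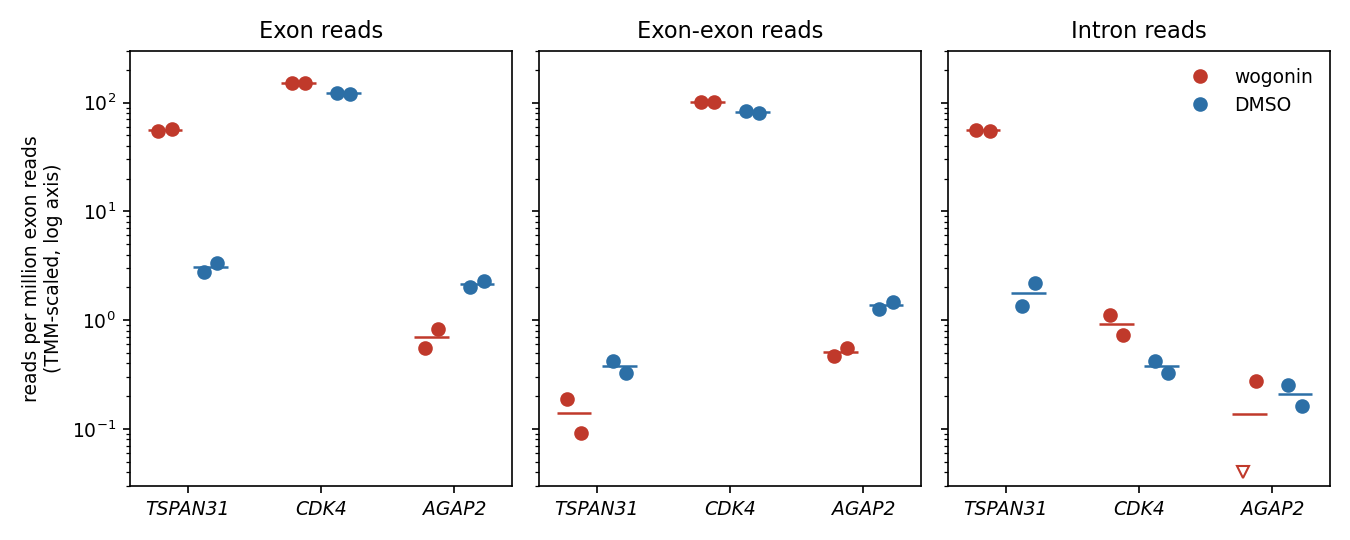
Exon, exon-exon and intron reads of the 3 genes are plotted per library as TMM-scaled CPM on a log axis, wogonin left of DMSO, with a line at each group mean and an open triangle for a library with 0 reads. TSPAN31 is higher in wogonin for exons (54.4 and 57.3 against 2.80 and 3.34 CPM) and introns, but not for exon-exon reads (0.186 and 0.0921 against 0.424 and 0.326 CPM).

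Reads lay almost as densely in TSPAN31 introns as in its exons after wogonin. Per kilobase, exons of TSPAN31 had 108 and 116 reads in wogonin 3 and 4, and 6.13 and 7.61 in DMSO 1 and 2. The non-exon part of the span, 6814 bases, had 88.8 and 87.3 reads per kilobase in wogonin, and 2.35 and 3.96 in DMSO. The intron density was thus 81.9% and 75.6% of the exon density in wogonin, and 38.3% and 52.0% in DMSO. Introns held 50.9% (48.0 to 53.7) and 48.9% (46.1 to 51.7) of all TSPAN31 reads in wogonin 3 and 4. In DMSO 1 and 2 they held 32.7% (21.2 to 46.6) and 39.7% (28.9 to 51.6), from 49 and 68 reads in all, and the intervals are wide. Most of the exon reads were counted by the authors as unique, 92.5% and 92.8% in wogonin and 90.9% and 80.5% in DMSO. Whether unique means a single place in the genome or a single gene is not stated. Transcripts of TSPAN31 that the authors' program marked as uniquely identified numbered 3 and 3 in wogonin, and 2 and 3 in DMSO. The tables do not say which transcripts these were.

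CDK4 was spliced in all libraries and stood a little higher after wogonin. Its exon reads numbered 1625 and 1631 in wogonin 3 and 4, against 1451 and 1471 in DMSO 1 and 2. Scaled, these were 151 and 150 CPM in wogonin, against 123 and 120 CPM in DMSO. Both wogonin libraries lay above both DMSO libraries, as in 41.0% of the 13449 genes tested. The log2 ratio of the means was 0.31, a 1.24-fold difference, with 0.29 to 0.34 over the 4 pairs of libraries. Exon-exon reads of CDK4 numbered 1084 and 1090 in wogonin, against 984 and 977 in DMSO. Their log2 ratio was also 0.31, with a range of 0.27 to 0.34, so the spliced reads of CDK4 differed by as much as all of its exon reads. For exon-exon reads, both wogonin libraries were above both DMSO libraries in 36.5% of the 12798 genes with 10 or more such reads. Exon-exon reads were 66.7% and 66.8% of CDK4 exon reads in wogonin, and 67.8% and 66.4% in DMSO.

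Introns of CDK4, which shares 2485 bases with TSPAN31, held few reads. There were 12 and 8 CDK4 intron reads in wogonin 3 and 4, against 5 and 4 in DMSO 1 and 2. The summed counts of 20 in wogonin and 9 in DMSO gave a scaled ratio of 2.48, with an exact 95% counting interval of 1.08 to 6.18. Introns made up 0.733% and 0.488% of the CDK4 reads in wogonin, and 0.343% and 0.271% in DMSO. The share of CDK4 exon reads counted as unique was 82.3% and 83.6% in wogonin, and 84.1% and 83.6% in DMSO.

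AGAP2 was near the limit of detection and lower after wogonin. Its exon reads numbered 6 and 9 in wogonin 3 and 4, against 24 and 28 in DMSO 1 and 2. Both wogonin libraries lay below both DMSO libraries, as in 40.9% of the genes tested. The means were 0.694 ± 0.191 CPM in wogonin and 2.16 ± 0.175 CPM in DMSO (SD, n = 2 each), a log2 ratio of -1.64 with a range of -2.03 to -1.29 over the 4 pairs. From the summed 15 reads in wogonin and 52 in DMSO, the scaled ratio was 0.322 with an exact 95% counting interval of 0.168 to 0.580. AGAP2 passed the filter on low counts only through its DMSO libraries. Exon-exon reads of AGAP2 numbered 5 and 6 in wogonin, against 15 and 18 in DMSO, a log2 ratio of -1.43 and a pattern of both libraries below that 38.6% of genes with 10 or more such reads showed. Most AGAP2 exon reads crossed a join, 83.3% and 66.7% of them in wogonin and 62.5% and 64.3% in DMSO. Intron reads of AGAP2 numbered 0 and 3 in wogonin, against 3 and 2 in DMSO, so no library exceeded the floor of 3 reads. AGAP2 shares 4145 bases with TSPAN31, whose intron reads numbered 605 and 595 in wogonin. The authors' program marked 0 and 0 AGAP2 transcripts as uniquely identified in wogonin, and 1 and 1 in DMSO.

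**Figure D3:**
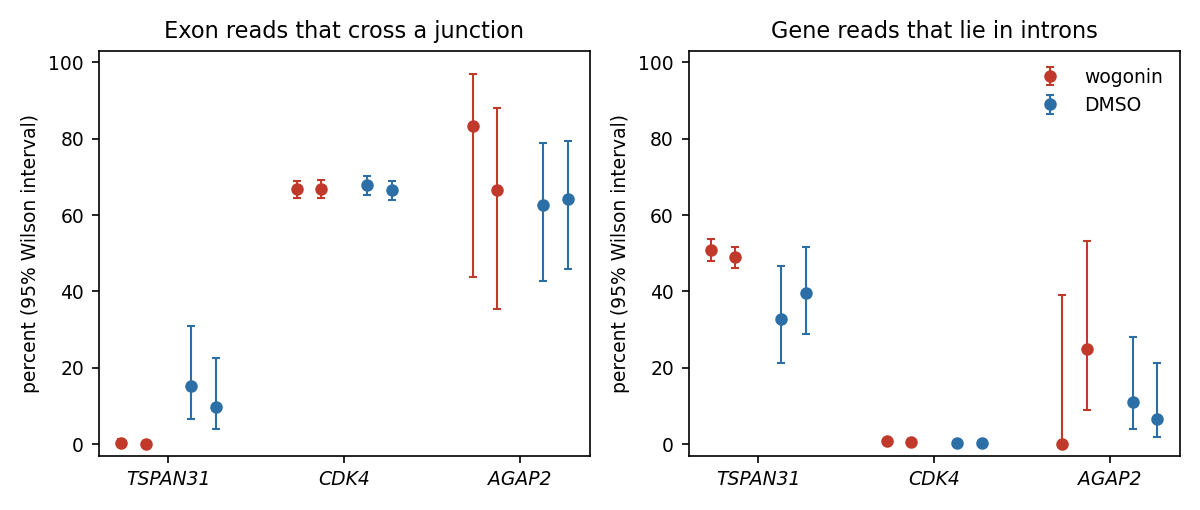
The share of exon reads that cross an exon join and the share of all gene reads that lie in introns are plotted per library in percent, with 95% Wilson intervals as bars, wogonin left of DMSO. For TSPAN31 the exon-exon share is 0.342% and 0.161% in wogonin and 15.2% and 9.76% in DMSO, while that of CDK4 stays between 66.4% and 67.8%.

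Within the locus, TSPAN31 held a larger part of all exon reads after wogonin, and CDK4 a larger part of the spliced reads. Of the exon reads of the 3 genes together, TSPAN31 held 26.4% and 27.5% in wogonin 3 and 4, and 2.19% and 2.66% in DMSO 1 and 2. CDK4 held 73.4% and 72.1% in wogonin, and 96.2% and 95.5% in DMSO. AGAP2 held 0.271% and 0.398% in wogonin, and 1.59% and 1.82% in DMSO. The shares need no scaling between libraries, and the wogonin and DMSO values of each gene did not overlap. The shares of the 3 genes make up the whole in each library, so they are not separate results. How often such shares separate over all genes was not examined. For exon CPM, both wogonin libraries were above both DMSO libraries in 41.0% of genes tested and below in 40.9%. Of the exon-exon reads of the 3 genes, CDK4 held 99.4% in both wogonin libraries, and 98.0% and 97.8% in DMSO. TSPAN31 held 0.183% and 0.0912% of them in wogonin, and 0.498% and 0.400% in DMSO. AGAP2 held 0.458% and 0.547% of them in wogonin, and 1.49% and 1.80% in DMSO. By exon-exon reads, too, the wogonin and DMSO shares of each gene did not overlap. For exon-exon CPM, both wogonin libraries were above both DMSO libraries in 36.5% of genes with 10 or more such reads, and below in 38.6%. For TSPAN31 and CDK4 the direction of the exon-exon shares was opposite to that by all exon reads. For TSPAN31 this rests on 2 and 1 reads in wogonin, against 5 and 4 in DMSO. The 95% Wilson intervals of its shares overlapped, at 0.0503 to 0.666 and 0.0161 to 0.515 in wogonin, against 0.213 to 1.16 and 0.156 to 1.02 in DMSO. Per kilobase of exon, CDK4 was highest in every library, at 47.8 and 47.4 CPM per kilobase in wogonin and 38.8 and 37.8 in DMSO. TSPAN31 came next, at 10.1 and 10.6 CPM per kilobase in wogonin and 0.519 and 0.620 in DMSO. AGAP2 was lowest, at 0.106 and 0.157 CPM per kilobase in wogonin and 0.384 and 0.431 in DMSO. The distance between TSPAN31 and AGAP2 was therefore small in DMSO, where each gene rested on 24 to 41 exon reads per library.

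The share of exon-exon reads of TSPAN31 was near the low end of all genes with 3 or more listed exons after wogonin. The median share of exon-exon reads was 43.1% over 12775 such genes in wogonin, and 44.2% over 12764 in DMSO. TSPAN31, at 0.249% over both wogonin libraries, had 250 genes (1.96%) below it, and at 12.2% over both DMSO libraries it had 12% of genes below it. CDK4 was above the median, with 66.8% in wogonin and 67.1% in DMSO, and so was AGAP2 with 73.3% in wogonin and 63.5% in DMSO. The median share of reads in introns was 6.42% in wogonin and 4.65% in DMSO. TSPAN31 had 49.9% in wogonin, with 6.89% of genes above it, and 36.8% in DMSO, with 8.25% of genes above it. TSPAN31 was thus already among the genes with few exon-exon reads and many intron reads in DMSO, though from 33 and 41 exon reads. As TSPAN31 was picked on reads of these kinds, its places among all genes are a description only.

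The genes whose exon levels were most like those of the 3 members were found by the Euclidean distance of log2 CPM over the 4 libraries. Nearest to TSPAN31 were FCGBP, at a distance of 0.76, TBX4 at 1.61 and TNFRSF10D at 1.75. In wogonin exon-exon reads were 32.4% of the exon reads of FCGBP, 36.1% of those of TBX4 and 33.5% of those of TNFRSF10D, against 0.249% for TSPAN31. Introns held 2.32%, 7.38% and 2.87% of the reads of FCGBP, TBX4 and TNFRSF10D in wogonin, in this order, against 49.9% for TSPAN31. These genes were the nearest by level, at growing distances, but their reads held larger shares across exon joins and smaller shares in introns than those of TSPAN31. Among the nearest to CDK4 were LYPLA1 at 0.044 and LRP6 at 0.060, and among the nearest to AGAP2 were AP000251.3 at 0.29 and ASH1L-AS1 at 0.37.

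Around the locus, genes moved in both directions. The tables list 41 other genes within 250 kb on either side, and 20 had enough reads to be tested. Of these, 5 rose, 9 fell and 6 did not pass the test (edgeR quasi-likelihood test, Benjamini-Hochberg adjusted over all genes, threshold 0.05). The 5 include CYP27B1 and AVIL, which passed the filter on low counts only through their wogonin libraries, so no test is read for them. With both counted, the 14 called are 70.0% of those tested, against 63.8% of all genes tested. That background is so high that being called says little of a neighbour. The p-values reflect the spread between libraries of a group and no more, and that spread may be technical. The median log2 fold change of the neighbours was -0.62, beside 0.00 for all genes.

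MARCH9, a ubiquitin ligase gene that overlaps the far end of CDK4, fell in wogonin. It had 99 and 101 exon reads in wogonin 3 and 4, against 175 and 193 in DMSO 1 and 2, a difference of -0.72 ± 0.14 on the log2 scale (SE; adjusted p = 2.9e-04 by edgeR). AGAP2-AS1, which overlaps AGAP2, had 1 and 1 exon reads in wogonin, against 0 and 0 in DMSO, and was not tested. CYP27B1, the hydroxylase that activates vitamin D, has its midpoint 27.6 kb from the start of TSPAN31, and rose. It had 22 and 21 exon reads in wogonin, against 2 and 3 in DMSO, a scaled ratio of 9.59 with an exact 95% counting interval of 3.81 to 31. CYP27B1 passed the filter on low counts only through its wogonin libraries, so no test is read for it. Unlike TSPAN31, CYP27B1 had exon-exon reads for 48.8% of its exon reads in wogonin, against 1 of 5 exon reads in DMSO.

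Among the other neighbours, B4GALNT1, which makes complex gangliosides, rose to 139 ± 2.06 CPM in wogonin, against 81.8 ± 2.61 CPM in DMSO (SD, n = 2 each; edgeR adjusted p = 5.9e-08), a log2 fold change of 0.77. With unique reads alone that value was 0.29. Its exon-exon reads numbered 259 and 254 in wogonin, against 260 and 238 in DMSO, and were 17.1% of exon reads in wogonin and 25.3% in DMSO. The dynactin subunit gene DCTN2 (log2 fold change 0.44) and the lipid kinase gene PIP4K2C (0.53) rose as well. AVIL, an actin-binding protein gene, passed the filter on low counts only through its wogonin libraries. It had 18 and 13 exon reads in wogonin, against 7 and 7 in DMSO, a log2 fold change of 1.29, and no test is read for it. With exon and intron reads together, the log2 fold change of AVIL was 0.47. CTDSP2, a phosphatase gene, fell to 126 ± 12.5 CPM in wogonin, against 238 ± 3.52 CPM in DMSO (SD, n = 2 each; edgeR adjusted p = 1.2e-08). The kinesin gene KIF5A (-1.01), XRCC6BP1 (-1.24), the exchange factor gene ARHGEF25 (-0.72), RP11-620J15.3 (-0.75), the methionyl-tRNA synthetase gene MARS (-0.98), the stress-response factor gene DDIT3 (-1.46) and METTL21B (-0.52) fell too, as log2 fold changes. The call of METTL21B was lost with DESeq2 (adjusted p = 0.111) and with unique reads (log2 fold change -0.28, edgeR adjusted p = 0.469). TSFM (0.16), OS9 (0.04), METTL1 (0.08) and MBD6 (-0.01) did not pass the test. Neither did ARHGAP9 and RP11-620J15.2, which passed the filter on low counts only through their DMSO libraries, so no test is read for them.

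**Figure D4:**
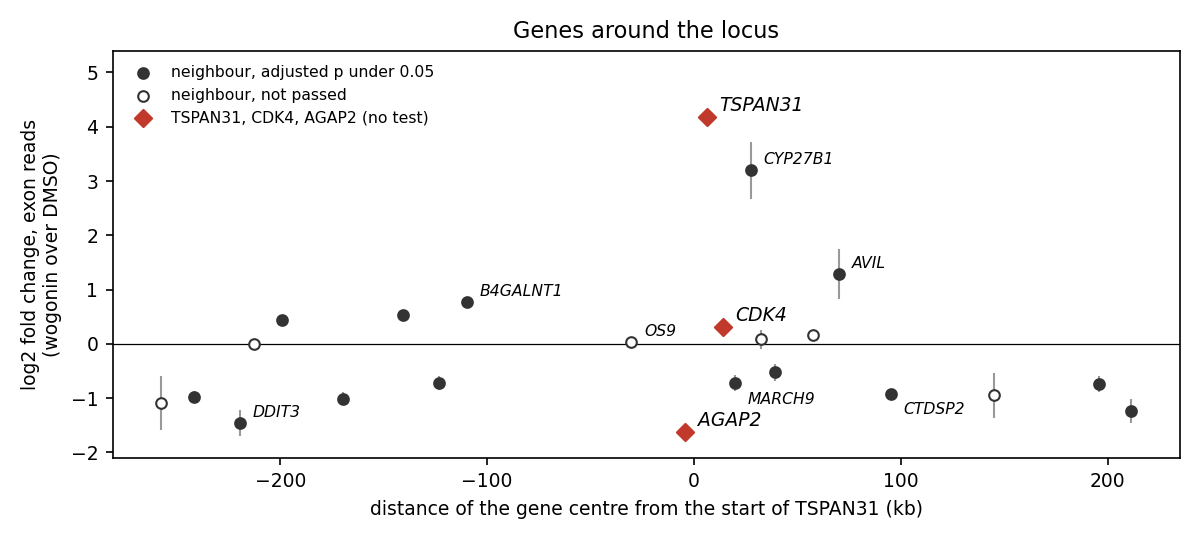
The log2 fold change of wogonin over DMSO of each tested neighbour is plotted against the distance of its midpoint from the start of TSPAN31 in kilobases, with the standard error as bars and the 3 members as diamonds. TSPAN31 stands at 4.18 in the edgeR fit, above CYP27B1 at 3.20, while most of the others lie between -1.46 and 1.29. The members were picked for this contrast, so nothing is read from their places.

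The relatives and partners of the 3 genes changed in either direction, in lists made with earlier results of these data known. Of 20 tested tetraspanin genes other than TSPAN31, 5 rose, 8 fell and 7 missed the threshold, and their median difference was 0.03 on the log2 scale. The 8 include CD82, PRPH2 and TSPAN10, which would not have passed the filter on low counts by their wogonin libraries alone. No test is read for these genes. TSPAN3 rose to 249 ± 10.5 CPM in wogonin, against 137 ± 0.848 CPM in DMSO, and CD63, a tetraspanin of late endosomes and exosomes, rose to 326 ± 20.4 CPM against 189 ± 0.279 CPM (SD, n = 2 each). CD81 (0.67) and CD151 (0.35) rose by smaller log2 fold changes and TSPAN6 fell (-0.73). CD82, a tetraspanin known as a suppressor of metastasis, had 2 and 2 exon reads in wogonin, against 25 and 17 in DMSO. The scaled ratio was 0.106 with an exact 95% counting interval of 0.0277 to 0.293. CD82 passed the filter on low counts only through its DMSO libraries, so no test is read for it. The called share, with CD82, PRPH2 and TSPAN10 counted, was 65.0%, close to the 63.8% of all genes, and nothing is read from it. The largest rise among these relatives was 0.86 for TSPAN3, against 4.18 for TSPAN31 in the same fit. As TSPAN31 was picked for this contrast, nothing is read from its standing above them.

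Of 20 tested partners and regulators of CDK4, 10 rose, 6 fell and 4 missed the threshold, and their median difference was 0.13 on the log2 scale. The 6 include CDKN1C, for which no test is read, as given below. CCND1, the D-type cyclin that activates CDK4, rose to 374 ± 0.356 CPM in wogonin, against 241 ± 23.4 CPM in DMSO (SD, n = 2 each; edgeR adjusted p = 4.8e-07). The D-type cyclin gene CCND3 (log2 fold change 0.72), the gene of the chaperone partner CDC37 (0.78) and that of the phosphatase CDC25A (1.02) rose with it. CDKN2B, which encodes the CDK4 inhibitor p15, fell to 14.9 ± 2.56 CPM in wogonin, against 39.1 ± 3.37 CPM in DMSO (SD, n = 2 each; edgeR adjusted p = 9.1e-08). Of the other CDKN2 genes listed, CDKN2A rose (log2 fold change 0.53), CDKN2C fell (-0.69) and CDKN2D missed the threshold (0.16). RBL2, a retinoblastoma relative, also fell (-0.62). At the ends of the list, and named after their values were seen, were the CDK inhibitor gene CDKN1A and its relative CDKN1C. CDKN1A rose by 2.12 on the log2 scale. CDKN1C had 2 and 4 exon reads in wogonin, against 55 and 37 in DMSO. It passed the filter on low counts only through its DMSO libraries, so no test is read for it. CDK6, the close relative of CDK4, had 0 and 1 exon reads in wogonin, against 0 and 0 in DMSO, while CDK4 had at least 1451 in each library. The called share of 80.0%, in which CDKN1C is counted, compares with 63.8% of all genes, and nothing is read from it.

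Of 25 tested Arf GAP genes other than AGAP2, 14 rose, 3 fell and 8 missed the threshold. Their median difference was 0.38 on the log2 scale, beside 0.00 for all genes. The called share was 68.0%. Of all genes tested 63.8% were called, 32.3% higher and 31.5% lower in wogonin. AGAP1 and AGAP3 encode proteins with the same layout of domains as AGAP2. AGAP3 rose to 129 ± 9.64 CPM in wogonin, against 74.8 ± 0.538 CPM in DMSO, and AGAP1 rose to 68.3 ± 6.16 CPM against 39.4 ± 0.147 CPM (SD, n = 2 each). AGAP6, one of several near-identical copies whose reads the counting could divide, rose to 18.5 ± 0.102 CPM in wogonin, against 8.02 ± 0.045 CPM in DMSO. ACAP3 (1.08), GIT1 (0.73) and ASAP1 (0.51) rose too, as log2 fold changes. The 3 that fell were ASAP3 (-0.82), ARAP1 (-0.39) and ARFGAP2 (-0.22). All of these stood at levels well above the 0.694 ± 0.191 CPM of AGAP2 in wogonin and its 2.16 ± 0.175 CPM in DMSO, on a scale that is not corrected for gene length.

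**Figure D5:**
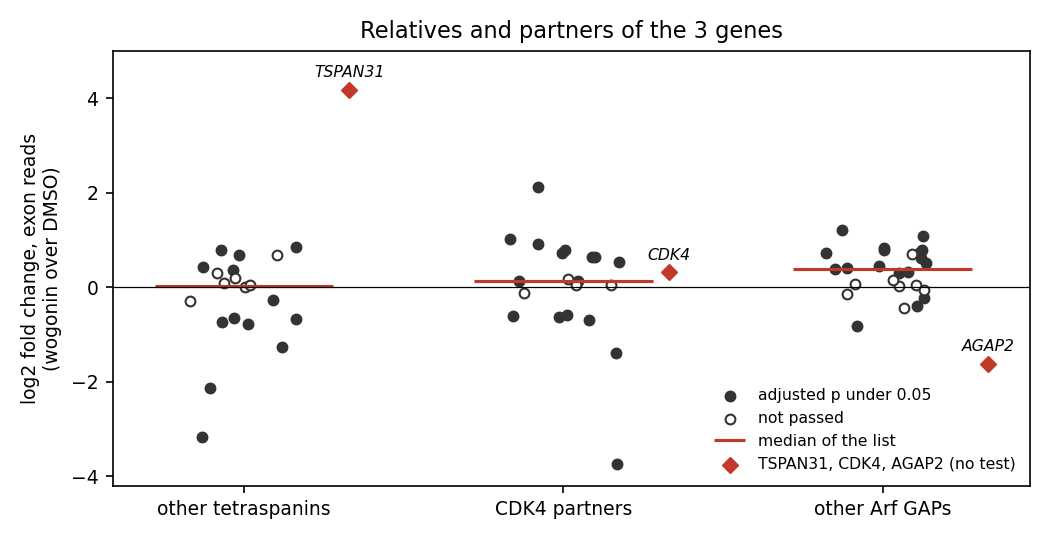
Each point is the log2 fold change of wogonin over DMSO of 1 tested gene, grouped as tetraspanins, CDK4 partners and Arf GAP genes, with a line at the median of each list and a diamond for TSPAN31, CDK4 or AGAP2 beside it. TSPAN31 lies above all of its 20 relatives, and CDK4 lies inside the spread of its 20 partners. AGAP2 lies below all of the 25 Arf GAP genes, whose lowest is -0.82. The members were picked for this contrast, so nothing is read from these places.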

How the data were processed

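For each of 4 libraries the authors deposited 1 table of 57773 genes. It holds counts of reads in exons, introns and across exon joins, as totals and as unique reads, per the file headers. The deposited TPM, RPKM and fraction columns were computed by the authors, per the file headers, and no comparison rests on them. RNA came from a column kit and libraries from a SMARTER mRNA kit, per the labels' protocols. The builds GRCh 37 and hg 19 are named in the submitters' processing notes. An aligner, counter, annotation release and strand setting were not given in any source used here.

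The 3 members and all gene lists were chosen with earlier results of these data known. Total exon counts of all genes were fitted with edgeR 4.0.16 in R 4.3.3 (filterByExpr, which left 13449 genes, TMM, robust quasi-likelihood test, 2-sided, Benjamini-Hochberg, threshold 0.05). The script was tested on simulated data. Member values are CPM scaled by the same factors, with ratios of group means and the range over the 4 pairs of libraries. With 2 libraries a group, the smallest p of an exact permutation test is 0.333. Shares have 95% Wilson intervals, and ratios of summed reads have exact binomial intervals. Intervals and the floor of 3 reads describe counting error alone, as reads carried no molecular identifier and may be copies. Genes were named by a rule that takes the 3 members, every tested gene within 250 kb, the 6 genes with the lowest adjusted p in a list and the 3 nearest profiles of each member, some of which are not reported here. CDK6, CDKN1A, CDKN1C, CDKN2A, CDKN2C, CDKN2D, ASAP3, ARAP1, ARFGAP2 and AGAP2-AS1 were added after their values were seen. So was the read make-up of CYP27B1 and B4GALNT1. One listed CDK4 partner and 1 cell marker are not analysed here. Junction sequences were cut from GENCODE 29 transcripts (GRCh 38). Alternatives were other scalings, filters and tools (DESeq2 1.42.0, limma 3.58.1), unique reads, gene reads and leaving out each library.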

Additional observations from a re-analysis of the deposited data

How the results depend on the processing

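The log2 ratio of TSPAN31 exon reads was 4.19 and became 4.44 with gene reads (exons and introns together). For CDK4 exon reads it was 0.31, against 0.22 with library totals as the only scaling and 0.24 with gene reads, and for CDK4 exon-exon reads 0.21 with library totals. Library totals moved the median of all genes to -0.09. The share of the locus held by TSPAN31 was 24.5 points higher in wogonin than in DMSO by exon reads, and 26.7 by unique ones. By exon-exon reads it reversed to -0.31, from wogonin counts under the floor of 3 reads. For CDK4 the difference was -23.1 points, -25.2 by unique reads, and reversed to 1.46 by exon-exon reads. For AGAP2 it was -1.37 points and -1.15 by exon-exon reads. Leaving out 1 library at a time gave log2 ratios of 4.05 to 4.32 for TSPAN31 exon reads, 4.64 to 5.35 for its intron reads and -2.02 to -1.01 for its exon-exon reads, which rest on 12 reads in all. The ranges were 0.29 to 0.32 for CDK4 exon reads, 0.27 to 0.32 for its exon-exon reads and 0.98 to 1.57 for its intron reads. For AGAP2 they were -1.95 to -1.37 for exon reads and -1.56 to -1.30 for exon-exon reads. Calls over all genes numbered 8577, with 6701 by DESeq2 and 9141 without a filter as the extremes. Of the 38 neighbours and list genes named by the rule, 31 kept direction and side of the threshold in every setting tried. The 31 include CYP27B1 and CD82, for which no test is read, so nothing is read from their unchanged calls. METTL21B lost its call with DESeq2 and with unique reads. AVIL, for which no test is read, did not pass the threshold with DESeq2 or with gene reads. Its log2 fold change was 0.47 with gene reads and 1.03 to 1.51 with 1 library left out. RP11-620J15.2 and ARHGAP9 passed the filter on low counts only through their DMSO libraries, so no test is read for them. Library totals put both past the threshold, and unique reads put RP11-620J15.2 past it. The sign of 3 genes that were never called turned. OS9 was -0.056 with library totals, -0.040 with gene reads and -0.026 to 0.097 with 1 library left out. METTL1 was -0.011 with library totals and -0.12 to 0.26 with 1 library left out, and MBD6 -0.054 to 0.017. Where a value changed, the cause was not tested. No paired analysis was possible because the groups share no replicate numbers.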

Other observations

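After the values of TSPAN31 were seen, all genes with at least 3 listed exons were searched for the same make-up of reads. Of these, 23 genes with at least 100 exon reads in each wogonin library had exon levels with a log2 ratio of 2 or more. In 3 of the 23, TSPAN31, SNAI3 and PIGZ, exon-exon reads were under 5% of the exon reads in wogonin, and in TSPAN31 and SNAI3 the intron level had a log2 ratio of 2 or more as well. The search was made to find genes like TSPAN31, so the count carries no test. SNAI3 (ENSG00000185669, chromosome 16, 88744090 to 88752901 of the deposited tables), a relative of the Snail transcription factors, had 184 and 168 exon reads in wogonin, against 44 and 39 in DMSO. Its intron reads numbered 467 and 373 in wogonin, against 31 and 19 in DMSO. Its exon-exon reads numbered 0 and 0 in wogonin, against 1 and 1 in DMSO. SNAI3 lies wholly within SNAI3-AS1 on the opposite strand, over 8812 bases, and SNAI3-AS1 had 177 and 183 exon reads in wogonin, against 81 and 77 in DMSO. With unique reads, only TSPAN31 met all of these limits. P2RY11 joined the genes that met them when DMSO 2 or wogonin 4 was left out.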
